A study of Mus musculus with 96 samples.

Results

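Transcript levels of mouse hepatocytes, the metabolic cells of the liver, were compared between the genotypes labelled RevDKO and Control at zeitgeber time (ZT) 22, late in the dark phase, when nocturnal mice end their active period. ZT counts hours from lights on, with lights off at ZT12. The comparison held 6 of the 96 libraries in the series, with 3 libraries per genotype chosen by the genotype, cell type and time in their titles. All 6 came from livers of male C57BL/6J mice kept for 4 weeks on a diet rich in fat and sucrose. Both genotypes carried floxed alleles of Nr1d1 and Nr1d2, also called Rev-erbα and Rev-erbβ. As adults, Control mice had received an adeno-associated virus encoding GFP and RevDKO mice a virus encoding the recombinase CRE, each driven by the hepatocyte promoter TBG, so that recombination was directed to the cells in which this promoter is active. Controls thus shared the floxed alleles and the viral injection with the RevDKO mice. The sources used here do not say whether a library came from 1 mouse or several, and p-values measure only the spread between these libraries. The same genotypes at ZT4, ZT10 and ZT16, with 6 libraries at each time, served to ask whether the difference at ZT22 was the one seen at other times of day. Another genotype, labelled RevScapTKO, gave the remaining 12 of the 36 libraries in the same table. These were not compared here, but entered the estimate of the spread, the gene medians, the filter on low values and the choice of 1 transcript per gene.

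REV-ERBα and REV-ERBβ are nuclear receptors that bind heme and repress transcription. They bind elements shared with the activating ROR receptors and hold down Arntl (BMAL1), whose product with CLOCK or NPAS2 in turn activates Nr1d1 and Nr1d2, together with the Per and Cry genes. In mouse liver this loop keeps REV-ERB abundant by day and scarce late in the night. Lipid synthesis in hepatocytes is driven by the SREBP transcription factors, which SCAP escorts to the Golgi for activation and which INSIG proteins hold back, whereas fatty acid oxidation is driven by PPARα.

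Levels are given in RPKTM, reads per kilobase of transcript, normalized by the authors to a read total 10 times that of RPKM, and values of 1 gene are listed in the order of replicates 1, 2 and 3. Before genotypes were compared, the libraries were compared with each other. Replicate 2 of both genotypes stood apart along the chromosomes. Over windows of 31 neighbouring genes, the median deviation of a library from the gene medians of all 36 hepatocyte libraries exceeded 0.5 log2 units for 8.48% of genes in Control replicate 2 and 5.14% in RevDKO replicate 2. Over the 36 libraries, 10 exceeded 3% of genes, all 10 of them a replicate 2, while the highest share in any other library was 0.646%. In Control replicate 2, 485 genes of chromosome 2 (mm9, 3031496 to 102630941) sat 0.88 log2 units low (median deviation -0.88), with shorter stretches further along the chromosome high. In RevDKO replicate 2, 393 genes of chromosome 3 (5218554 to 97954290) deviated by -1.30, 54 genes of chromosome 14 (8650471 to 21871664) by -2.29 and 48 genes of chromosome X (6154404 to 17149451) by -2.61, while 65 genes of chromosome 19 (46673596 to 61304321) deviated by 0.77. In all, 1761 of 13326 genes tested (13.2%) lay in such a stretch in either library. Over the end of chromosome 18 both replicate 2 libraries were high, by 0.75 in Control (63868349 to 90763116) and 0.85 in RevDKO (73924608 to 90763116). The cause was not tested. For genes in these stretches whose difference at ZT22 is given, the difference with the running median subtracted stands beside it.

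**Figure D1:**
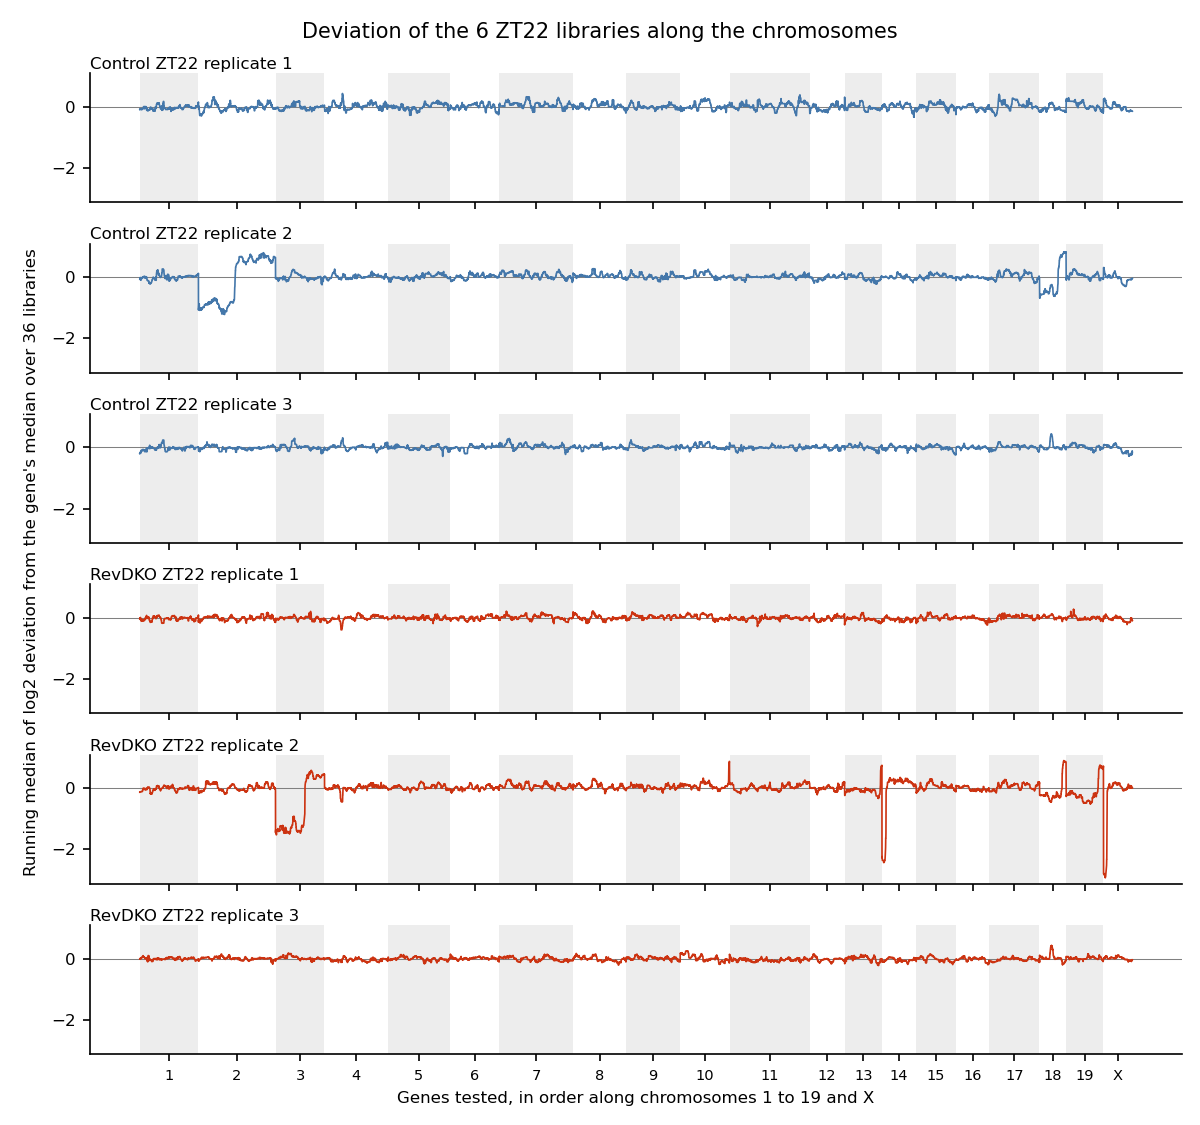
Median deviation of each ZT22 library from the gene medians of the 36 hepatocyte libraries (vertical axis, log2 units), over 31 neighbouring genes in order along chromosomes 1 to 19 and X (horizontal axis), with Control in blue and RevDKO in red. The 4 libraries of replicates 1 and 3 stay near 0, while Control replicate 2 drops over chromosome 2 and RevDKO replicate 2 over chromosomes 3, 14 and X.

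Passing the filter on low values does not identify a cell type here. All 16 liver macrophage, all 10 endothelial and all 10 stellate and fibroblast markers passed it. Of 15 hepatocyte markers 14 were in the table, all 14 passed the filter and none was at 0. Their summed level was 499416, 1104560 and 563174 RPKTM in Control and 560774, 560070 and 573960 in RevDKO. The high sum of Control replicate 2 came from the rank of Alb (albumin), first in that library and behind the ribosomal transcript Rn45s in the other 5. After quantile normalization the first rank holds 10.8% of every column and the rank of Alb in the other 5 holds 3.84%, so these shares are set by rank and are not measured fractions. Liver macrophage markers summed to 3968, 2862 and 3177 RPKTM in Control and 3088, 2028 and 2242 in RevDKO. All 16 of these markers had a lower mean in RevDKO, with a median log2 difference of -0.39, and 0 of 16 passed the limma test. In 3 of them all RevDKO libraries lay below all Control libraries, against 8.18% of all genes tested, and in bulk RNA fewer cells of a type and less RNA per cell cannot be told apart. Endothelial markers summed to between 1941 and 3272 in Control and between 2488 and 2607 in RevDKO, stellate and fibroblast markers to between 1177 and 2305 and between 1711 and 2103. Cholangiocyte markers reached at most 125 RPKTM in any of the 6 libraries, and the 7 lymphocyte markers in the table at most 8.72 in sum. Erythroid markers summed to between 220.5 and 361 in Control and between 159 and 274 in RevDKO. No marker of any cell type passed the test. The mean log2 level of the 16 macrophage markers was 7.46, 6.80 and 7.04 in Control at ZT22 and 5.28, 4.84 and 5.19 at ZT10. In RevDKO it was 7.08, 6.41 and 6.51 at ZT22 and 5.76, 4.54 and 5.96 at ZT10. The libraries of the 2 times thus also differed in macrophage RNA. Its part in the differences between times was not tested beyond a fit with a macrophage covariate.

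The targeted genes were examined first. The study reports both as strongly reduced in RevDKO hepatocytes, shown as relative mRNA expression. Its legend gives more samples per group than the 3 libraries here and does not name the method, so the 2 measures may differ. Here, in whole-transcript values at ZT22, the mean levels of both genes were higher in the libraries labelled RevDKO. Nr1d1 (NM_145434, mm9 chromosome 11, 98629246 to 98636691, minus strand) measured 5.09, 16.2 and 3.57 RPKTM in Control and 39.9, 76.3 and 43.5 in the libraries labelled RevDKO. All 3 of the latter lay above all Control libraries, a rise of 2.73 on the log2 scale (SE 0.50, limma adjusted p 0.00448). At the other times Nr1d1 differed by 0.00 at ZT4, 0.95 at ZT10 and 2.52 at ZT16. Nr1d2 (NM_011584, chromosome 14, 19036570 to 19071620, minus strand) measured 63.8, 92.0 and 34.2 in Control and 225, 39.2 and 222 in RevDKO, a difference of 1.09 (SE 0.39, adjusted p 0.322). Its gene lies in the stretch of chromosome 14 that was low in RevDKO replicate 2. Once the running median along the chromosomes was subtracted from each library, the difference was 1.93 (adjusted p 7.95e-05), and over replicates 1 and 3 it was 2.23 (adjusted p 0.000121 at ZT22 alone and 0.00687 with every group reduced). The table holds 1 value per transcript, so exons removed by CRE and exons that remain are not separated. Part of Nr1d1 (1075 bases) also overlaps Thra on the opposite strand, and strand use in counting was not stated. Directions below are therefore those of the libraries labelled RevDKO.

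At ZT22, 65 of 13326 genes tested (0.488%) differed between the genotypes at an adjusted p under 0.05, of which 35 were higher in the libraries labelled RevDKO (0.263% of genes tested) and 30 lower (0.225%). The median difference over all genes was -0.01 on the log2 scale, and 1117 genes (8.38%) had an unadjusted p under 0.05. In all 65 the 3 RevDKO libraries lay to one side of the 3 Control libraries, which held for 16.3% of all genes tested. Exact permutation of 3 against 3 libraries cannot give a two-sided p below 0.1, so single genes rest on limma, which pools the spread over the 36 libraries of the table. Of the 65 genes, 14 lay in a shifted stretch, and 11 of these were among the 35 that rose. Subtracting the running median along the chromosomes gave 75 genes, with 38 higher and 37 lower, and 54 of the 65 among them. Leaving replicate 2 out of both genotypes gave 17 genes, with 10 higher and 7 lower, 16 of them among the 65, and all 65 kept their direction. Leaving out 1 library at a time gave between 19 and 53 genes, with 19 without Control replicate 1, 33 without Control replicate 2, 37 without RevDKO replicate 1 and 26 without RevDKO replicate 2.

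Most differences at ZT22 pointed the same way throughout the day. Of the 65 genes, 57 (87.7%) differed in the same direction at ZT4, ZT10, ZT16 and ZT22, against 26.5% of all genes tested, and the mice of the 4 times were separate libraries. The same test gave 78 genes (0.585%) at ZT4, 158 (1.19%) at ZT10 and 40 (0.3%) at ZT16. Those higher in RevDKO were 0.413%, 0.69% and 0.15% of genes at the 3 times, and those lower 0.173%, 0.495% and 0.15%. Of the 65, 30 passed in the same direction at 1 or more other times and 9 at all 4 times. These 9 were Loxl4, Cyp17a1, Pyroxd2, Grk5, Hectd2, Hectd2os, B930025P03Rik, Aldh3a2 and Col27a1. The other 35 passed at ZT22 alone, which does not show that their difference was confined to ZT22. Only 4 of the 65 (Loxl4, Gpam, Acly and Slc43a1) passed the test of the difference between ZT22 and ZT10 described further on.

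The gene that rose furthest, B930025P03Rik, is an uncharacterized noncoding transcript. It measured 0, 4.99 and 3.77 RPKTM in Control and 51.0, 54.7 and 39.4 in RevDKO, a difference of 4.00 (SE 0.74, adjusted p 0.00501) on a scale on which 1 is added to each value. Cyp17a1, which encodes the steroid 17α-hydroxylase, rose from 113, 128 and 75.0 to 863, 1711 and 803, 10.2-fold (3.35 log2 units, SE 0.63, adjusted p 0.00541). Its highest value was in RevDKO replicate 2, where its chromosome 19 stretch was 0.61 log2 units high, and without that library the rise was 3.01 (adjusted p 0.0705). With the running median subtracted it was 3.18 (adjusted p 0.00321). Loxl4, a lysyl oxidase that crosslinks collagen, had the smallest adjusted p. It measured 159, 109 and 118 in Control and 892, 714 and 686 in RevDKO, 5.93-fold higher (2.57 log2 units, SE 0.33, adjusted p 0.000121), and passed the test with any 1 library left out. Serpina12, the serpin vaspin, measured 42.7, 11.8 and 56.9 against 170, 143 and 210 (2.44 log2 units, adjusted p 0.0188). The hepcidin gene Hamp2 measured 19.7, 58.6 and 28.0 against 137, 225 and 152 (2.35, adjusted p 0.0413). Gucy2c, a guanylyl cyclase receptor better known from the intestine, was low in Control (3.94, 3.77 and 0.647) and reached 20.7, 27.9 and 19.7 in RevDKO (2.79, adjusted p 0.0407).

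Adora1, the adenosine A1 receptor, rose from 57.3, 56.0 and 18.2 to 176, 155 and 135 (1.96 log2 units, adjusted p 0.00532). It overlaps Mybph on the opposite strand over 2023 bases. The ubiquitin ligase gene Hectd2 and its antisense transcript Hectd2os, which share 1718 bases on opposite strands of chromosome 19, rose by 1.80 (adjusted p 0.0344) and 2.01 (adjusted p 0.0293). Reads of such a pair cannot be told apart where counting ignores strand. The sulfotransferase gene Sult1c2 measured 1.86, 1.60 and 1.09 in Control and 9.93, 12.5 and 12.1 in RevDKO (2.32, adjusted p 0.00700), and the uncharacterized 1700010I14Rik rose by 2.48 (adjusted p 0.00106). Among the 12 largest rises, Nr1d1 included, Loxl4 and 1700010I14Rik passed the test in all 6 fits that left out 1 library. The adjusted p of the others reached between 0.0539 for Sult1c2 without RevDKO replicate 2 and 0.316 for Hamp2 without Control replicate 1.

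The gene that fell furthest, Mup17, encodes a major urinary protein that carries pheromones. It measured 389, 114 and 96.3 RPKTM in Control and 2.44, 1.01 and 3.49 in RevDKO, 52.0-fold lower (log2 difference -5.70, SE 0.95, adjusted p 0.00208). Mup17 belongs to a cluster of near-identical genes whose reads can be split between copies, and Mup20 (0.74) and Mup21 (1.44) differed in the other direction without passing the test. Rprl3, an RNA of the ribonuclease P family, was listed at 0 in all 3 RevDKO libraries and measured 124, 81.5 and 4.51 in Control (adjusted p 0.0446). Srgap3, a GTPase-activating protein of Slit-Robo signaling, measured 33.3, 45.6 and 32.6 against 1.64, 2.32 and 6.56 (-3.22, adjusted p 0.0202). Nat8f5, of the N-acetyltransferase 8 family, differed by -2.74 (adjusted p 0.00700), the collagen gene Col27a1 by -2.48 (adjusted p 0.0134) and the kinesin gene Kif26b, at most 10.6 in any library, by -2.36 (adjusted p 0.0450).

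Car3, the abundant muscle and fat carbonic anhydrase, measured 2952, 2004 and 2475 in Control and 565, 199 and 942 in RevDKO (-2.37, adjusted p 0.0387). Its gene lies in the chromosome 3 stretch that was low in RevDKO replicate 2. With the running median subtracted the difference was -1.95 (adjusted p 0.0682), and over replicates 1 and 3 it was -1.89 (adjusted p 0.522 at ZT22 alone and 0.2502 with every group reduced), which ended the call. Subtraction kept the call of the other 23 of these 24 largest changes, and replicates 1 and 3 at ZT22 kept 8. Among the 12 falls, Mup17, Saa1, Acot3 and Acot1 passed with any 1 library left out, while the adjusted p of the others reached between 0.0850 for Nat8f5 without RevDKO replicate 1 and 0.390 for Car3 without RevDKO replicate 2.

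**Figure D2:**
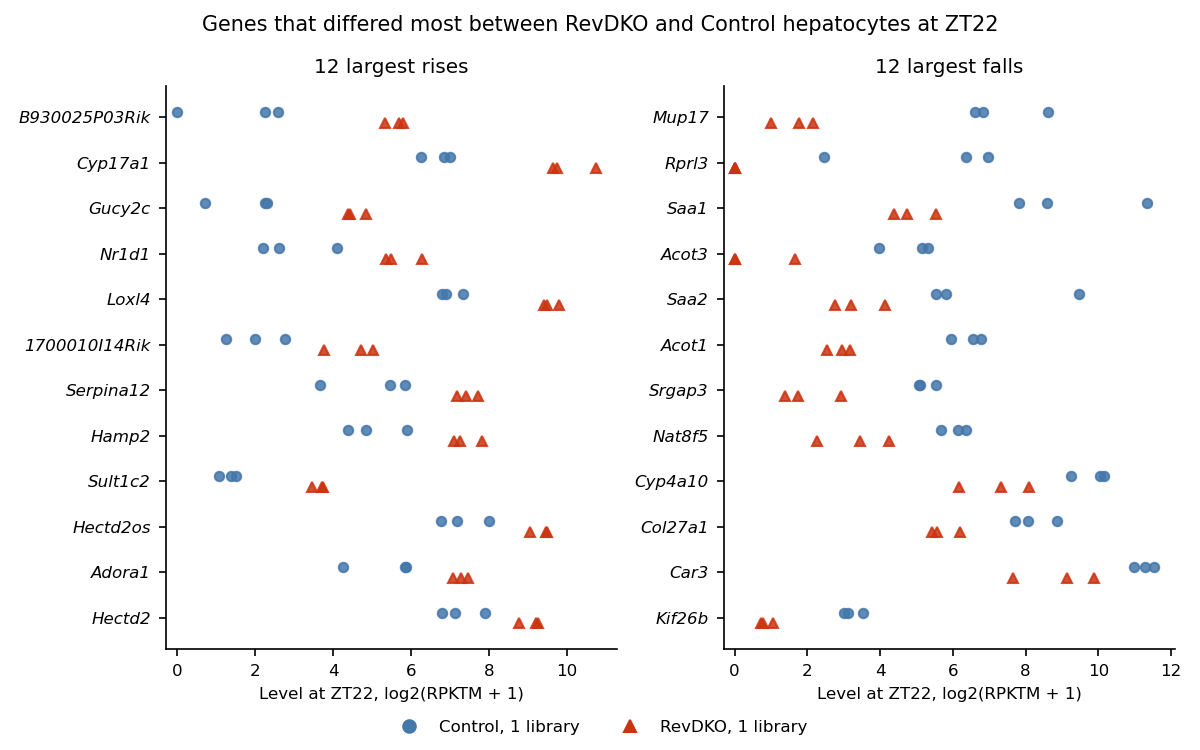
Level of the 12 genes with the largest rise (left) and the 12 with the largest fall (right) at ZT22, as log2(RPKTM + 1) on the horizontal axis, with each of the 3 Control libraries a blue circle and each of the 3 RevDKO libraries a red triangle. The genes were chosen so that the triangles lie to one side of the circles, and Rprl3 sits at 0 in all 3 RevDKO libraries.

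Other genes that passed, with smaller folds, are named here after their values were seen. Ces1d, a carboxylesterase that hydrolyses triglyceride, measured 3471, 3037 and 2933 in Control and 506, 578 and 917 in RevDKO (-2.28, adjusted p 0.000679). Its relative Ces1f differed by -1.18 (adjusted p 0.0325). Aldh3a2, the fatty aldehyde dehydrogenase, measured 1200, 787 and 789 against 259.7, 336 and 304 (-1.60, adjusted p 0.00373), and Pctp, the phosphatidylcholine transfer protein, differed by -2.12 (adjusted p 0.00700). Aldh3a2 and Pctp also passed in both fits on replicates 1 and 3, Ces1d in the fit at ZT22 (adjusted p 0.0257) but not in that of every group (adjusted p 0.0521), and Ces1f in neither. Pyroxd2, an oxidoreductase, held almost the same rise at every time, with 1.72 at ZT4, 1.68 at ZT10, 1.74 at ZT16 and 1.70 at ZT22 (adjusted p 0.000188). At ZT22 it measured 42.3, 44.9 and 47.6 in Control and 147, 139.7 and 158 in RevDKO. The glutamine transporter Slc38a3 (1.06, adjusted p 0.0128) and the fructose transporter Slc2a5 (1.57, adjusted p 0.0270) rose, and the carnitine transporter Slc22a5 fell (-1.06, adjusted p 0.0344). The chemokine gene Cxcl12 fell by 0.83 on the log2 scale, from 885, 1102 and 806 to 466, 575 and 525 (adjusted p 0.0488). Over replicates 1 and 3 at ZT22, Slc38a3, Slc2a5, Slc22a5 and Cxcl12 did not pass (adjusted p 0.0963, 0.351, 0.337 and 0.421). With every group reduced, Slc38a3 passed (adjusted p 0.0309), while Slc2a5, Slc22a5 and Cxcl12 did not.

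All 8 genes of chromosome 2 that rose lay in the stretch that was low in Control replicate 2, and they too are named after their values were seen. They were Dpp4, Dhtkd1, Qsox2, Mbd5, Kynu, Neb, Camk1d and Slc43a1. Kynu, the kynureninase of tryptophan breakdown, measured 640, 441 and 775 in Control and 1323, 1395 and 1323 in RevDKO. Its difference went from 1.16 (adjusted p 0.00448) to 0.75 (adjusted p 0.0320) with the running median subtracted. Camk1d, a calmodulin-dependent kinase, went from 1.38 to 1.01 (adjusted p 0.0365). Dpp4, Dhtkd1, Qsox2, Mbd5 and Neb did not pass after that subtraction, and neither did Grk5 on chromosome 19. Slc43a1, a transporter of large neutral amino acids, measured 11.2, 18.5 and 19.2 against 61.1, 49.5 and 46.2 (1.65, adjusted p 0.00448). It kept its call with the subtraction (1.36, adjusted p 0.0431) and over replicates 1 and 3 at ZT22 (1.79, adjusted p 0.0415), but not over replicates 1 and 3 of every group (adjusted p 0.0573).

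Among the clock activators at ZT22, the estimated difference was small for Arntl and Clock and larger, with a wide SE, for Npas2. Arntl (NM_001368412, mm9 chromosome 7, 120351025 to 120457640, plus strand) measured 112, 117 and 119 RPKTM in Control and 139, 140.4 and 148 in RevDKO. The groups did not overlap, yet the difference of 0.29 (SE 0.26) had an adjusted p of 0.876. Clock measured 457, 467 and 544 against 542, 507 and 506 (0.09, adjusted p 0.983). Npas2, which can stand in for CLOCK, measured 26.7, 41.5 and 58.5 against 121, 138 and 76.6, without overlap (1.41, SE 0.59, adjusted p 0.495). None of the 3 activators passed the test.

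Of the 8 clock repressors, 1 passed as higher, namely Nr1d1, against 0.263% of all genes tested. Cry1 lay at 119, 147 and 127 in Control and 133, 123 and 134 in RevDKO, so that the groups overlapped and the means coincided (log2 difference -0.00, adjusted p 0.999). Per3 measured 35.8, 70.4 and 28.0 against 144, 101 and 74.4, with no overlap but an adjusted p of 0.493 (1.29). Per1 and Per2 each differed by 0.22, Cry2 by 0.49 and Ciart by -0.09, with adjusted p between 0.589 and 0.992. Cry2 lies in the low stretch of Control replicate 2 and Ciart in that of RevDKO replicate 2, and with the running median subtracted the differences were 0.15 and 0.32, the latter of the other sign.

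Among the output factors that the clock controls or that share its response elements, Rora, which encodes the activator RORα, differed by 0.19 (adjusted p 0.944). The proline and acid-rich bZIP factors that bind D-boxes did not pass, with Dbp at 7.39, 9.81 and 9.01 against 25.5, 24.5 and 13.4 (1.14, adjusted p 0.614), a difference of 0.64 for Tef (adjusted p 0.656) and 0.02 for Hlf (adjusted p 0.998). Nfil3, a repressor that binds the same elements, measured 118, 136 and 119 against 138, 152 and 217 (0.42, adjusted p 0.739). Bhlhe40 and Bhlhe41, repressors that bind E-boxes, differed by 0.34 and 1.28 (adjusted p 0.867 and 0.452).

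Promoter sequences of RefSeq (build GRCm38.p6, 250 bases before to 50 after the start) were searched on both strands for the REV-ERB and ROR element TAGGTCA or TGGGTCA, the E-box CACGTG and the D-boxes TTATGTAA and TTACGTAA. Of the 57 genes searched, 46 had a window, and 12 held any of these motifs. Of the 24 genes with the largest changes, 18 had a window and none of these genes held a motif, which says only that these letters are not in their windows. Over all 27025 genes with a window, TAGGTCA was in 2.97%, TGGGTCA in 4.57%, CACGTG in 8.09%, TTATGTAA in 1.11% and TTACGTAA in 0.126%. Shown are stretches around a motif, in capitals, of the genes that passed the test of ZT22 against ZT10 below and that hold 1. They are read 5′ to 3′ on the strand of the gene, and TGACCTA and TGACCCA are the REV-ERB and ROR elements read on the other strand. The Arntl stretch is at chr7:113207529-113207558 (plus strand, within the transcribed start), the Nfil3 stretch at chr13:52981040-52981099 (minus strand), the Insig2 stretch at chr1:121328194-121328253 (minus strand) and the Cry1 stretch at chr10:85185085-85185144 (minus strand).
Arntl: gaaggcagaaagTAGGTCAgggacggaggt
Nfil3: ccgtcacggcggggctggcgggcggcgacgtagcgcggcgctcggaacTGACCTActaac
Insig2: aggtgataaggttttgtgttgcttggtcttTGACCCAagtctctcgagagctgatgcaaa
Cry1: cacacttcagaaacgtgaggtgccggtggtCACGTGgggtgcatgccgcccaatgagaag

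Whether the genotypes differed at ZT22 by another amount than at ZT10, when REV-ERB is near its daily high, was tested as the difference between the 2 differences. This passed for 39 of 13326 genes (0.293%), with 16 higher (0.12%) and 23 lower (0.173%). In 30 of the 39 the difference was smaller at ZT22 than at ZT10, and in 27 the sign was opposite at the 2 times. The 23 were all higher in the libraries labelled RevDKO at ZT10, and the 16 were all lower there. Against the mean difference over ZT4, ZT10 and ZT16, the effect at ZT22 departed in 9 genes (0.0675%), with 3 higher (0.0225%) and 6 lower (0.045%), and all 9 were among the 39. Without replicate 2 of both genotypes at ZT22 the tests gave 15 and 3 genes, and without replicate 2 of every group 5 and 0.

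Arntl had the smallest adjusted p in this test. At ZT10 it measured 4.62, 4.21 and 10.6 RPKTM in Control and 145, 117 and 122 in RevDKO, a difference of 4.20, which at ZT22 had shrunk to 0.29 (difference of differences -3.91, SE 0.37, adjusted p 9.67e-08). The Control level had climbed close to the RevDKO level, and the RevDKO level stayed between 117 and 155 at all 4 times. Npas2 (-4.19, adjusted p 0.0124), Cry1 (-2.33, adjusted p 0.00322) and Nfil3 (-1.92, adjusted p 0.00563) also differed by less at ZT22 than at ZT10. Insig2, whose promoter stretch is printed above with those of Arntl, Cry1 and Nfil3 and whose product retains SCAP and thereby SREBP, followed with -1.71 (adjusted p 0.0272), after 261, 314 and 259 in Control at ZT10 against 821, 1100 and 911 in RevDKO, and 1128, 1030 and 1545 against 1086, 1422 and 1265 at ZT22. Subtraction of the running median ended the call of Insig2 (-1.53, adjusted p 0.0548). Over replicates 1 and 3 of every group Arntl (-3.74, adjusted p 0.00715) passed, and Npas2, Cry1, Nfil3 and Insig2 did not, with adjusted p between 0.0628 and 0.262.

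The difference in Loxl4 remained at ZT22 but was smaller than at the other times. It was 4.61 at ZT4, 5.82 at ZT10, 4.49 at ZT16 and 2.57 at ZT22. RevDKO libraries held between 548 and 892 throughout, while Control went from 14.4, 10.1 and 11.1 at ZT10 to 159, 109 and 118 at ZT22. Lpl, the lipoprotein lipase that releases fatty acids from circulating triglyceride, behaved alike but had no called difference left, with 3.74 at ZT4, 3.89 at ZT10, 2.17 at ZT16 and 0.80 at ZT22 (adjusted p 0.526 at ZT22). At ZT22 it measured 79.3, 81.6 and 58.1 against 119, 135 and 125, with no overlap. Ddc, the aromatic amino acid decarboxylase, was at nearly one level in both genotypes at ZT22 (-0.14, adjusted p 0.956). At ZT10 it had been higher by 2.01.

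**Figure D3:**
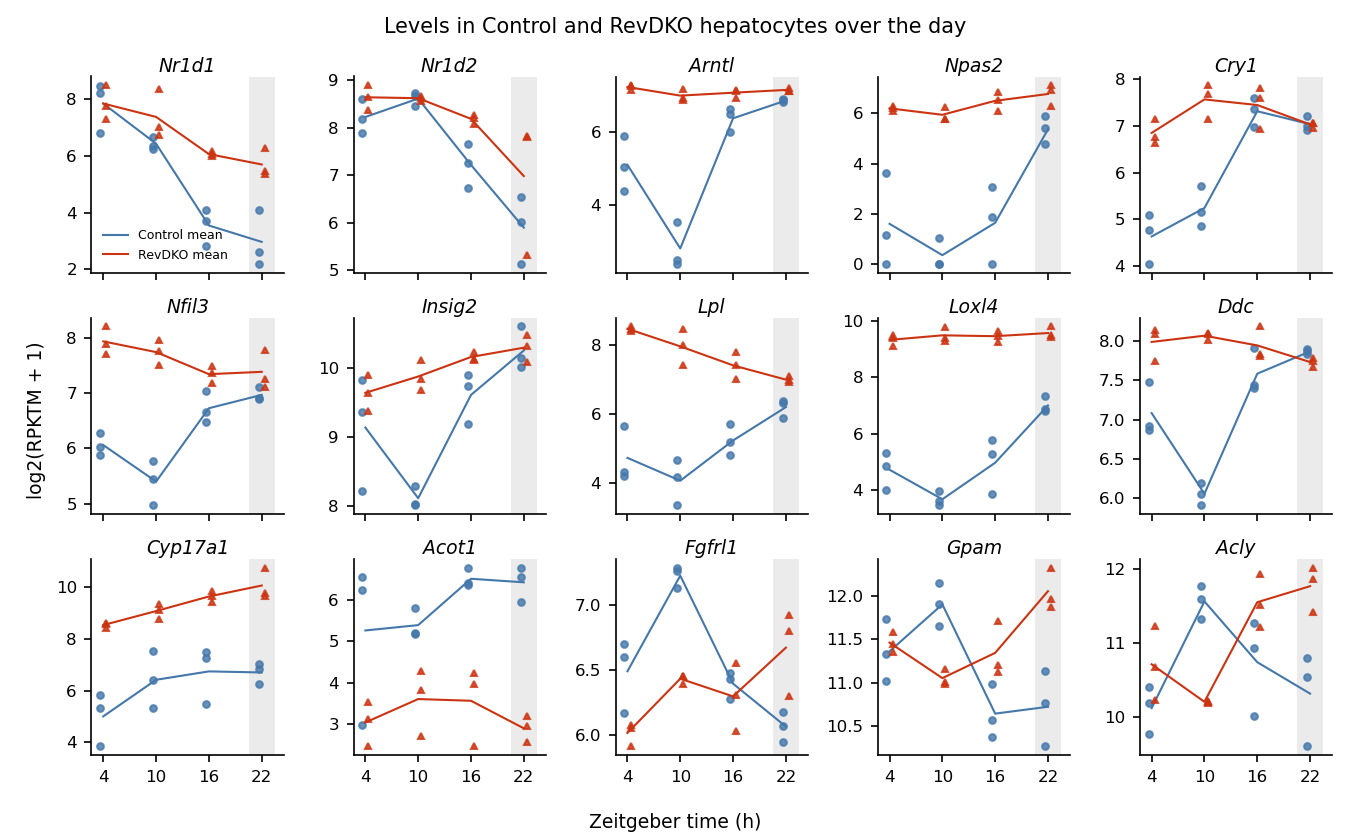
Level as log2(RPKTM + 1) (vertical axis) against zeitgeber time in hours (horizontal axis) of 15 genes, with each library a blue circle (Control) or red triangle (RevDKO), lines through the means of 3 libraries, and ZT22 shaded. The lines of Arntl, Cry1, Insig2 and Ddc come together at ZT22, those of Loxl4, Cyp17a1 and Acot1 stay apart, and those of Gpam, Acly and Fgfrl1 cross.

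The genes of fatty acid synthesis had, in the median, higher levels in RevDKO at ZT22 and lower levels at ZT10. Of 14 members tested, 1 passed as higher at ZT22 (Acly), against 0.263% of all genes. In 6 the RevDKO libraries stood wholly above Control, against 8.08% of all genes, while in 2 they lay below, against 8.18%. The median difference of the list was 0.98 at ZT22 and -1.08 at ZT10, beside a median of -0.01 over all genes at ZT22. Acly, which makes the cytosolic acetyl-CoA for lipid synthesis, measured 780.4, 1492 and 1775 in Control and 4139.7, 3714 and 2737 in RevDKO, 2.73-fold higher (1.45, SE 0.33, adjusted p 0.0322). At ZT10 the order was reversed, with 2557, 3493 and 3076 against 1181, 1166 and 1193 (difference of differences 2.80, SE 0.46, adjusted p 0.00159). Control replicate 1 was the lowest library at ZT22, and without it the rise was 1.10 (adjusted p 0.328). The call was also lost without Control replicate 2, RevDKO replicate 1 or RevDKO replicate 2 (adjusted p 0.0701 to 0.159).

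Fatty acid synthase (Fasn) measured 2136, 6235 and 10131 against 16763, 15851 and 7485 at ZT22, so that the groups overlapped (1.29, adjusted p 0.382). Its change in difference from ZT10 passed (3.91, adjusted p 0.00409), as did that of the elongase Elovl6 (4.05, adjusted p 0.0291), which at ZT22 measured 181, 321 and 427 against 891, 1267 and 679.9 (1.65, adjusted p 0.368). Over replicates 1 and 3 at ZT22 the changes from ZT10 passed for Fasn and Acly (limma adjusted p 0.0434 and 0.0128) but not for Elovl6 (0.185). Over replicates 1 and 3 of every group Fasn, Elovl6 and Acly did not pass (adjusted p 0.202, 0.224 and 0.0648). The lipogenic regulator Thrsp (1.64), malic enzyme Me1 (1.37), acetyl-CoA carboxylase Acaca (1.29) and the desaturase Scd1 (0.89) had higher means without overlap, with adjusted p between 0.247 and 0.713. In these 6 genes and Acly, Control replicate 1 was the lowest library of all and RevDKO replicate 3 the lowest of its genotype. The desaturases Fads1 (-0.35) and Fads2 (-0.18) and the citrate carrier Slc25a1 (-0.28) did not share the direction. Srebf1, which encodes the SREBP1 factors, measured 1409, 2095 and 2226 against 3334, 3024 and 2027 (0.55, adjusted p 0.803), and 0 of the 7 genes of the SREBP machinery passed. Srebf2 differed by -0.52, Scap by 0.24, Insig1 by 0.11, Mbtps1 by 0.08 and Mbtps2 by 0.50.

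Of 15 genes of triglyceride synthesis and lipid droplets that were tested, 1 passed as higher, against 0.263% of all genes. Gpam, the mitochondrial acyltransferase that starts glycerolipid synthesis, measured 1237, 1743 and 2241 in Control and 3986, 5118 and 3739 in RevDKO, 2.51-fold higher (1.33, SE 0.23, adjusted p 0.00316). It differed by -0.85 at ZT10, and the change from ZT10 passed (2.17, adjusted p 0.000527), as did the departure from the mean of the other times (1.34, adjusted p 0.0378). Its gene lies in the chromosome 19 stretch that was high in RevDKO replicate 2. The rise was 1.04 with the running median subtracted (adjusted p 0.000878), 1.21 over replicates 1 and 3 (adjusted p 0.0981 at ZT22 alone and 0.0411 with every group reduced) and 1.10 without Control replicate 1 (adjusted p 0.0586). Lpin1, the phosphatidate phosphatase, measured 227, 383 and 487 against 1220.0, 1532 and 2054, the largest fold of the list, with an adjusted p of 0.165 (2.16, SE 0.63). The acyltransferases Dgat1 (0.40) and Dgat2 (0.21), the lipase Pnpla2 (0.25) and the droplet protein Plin2 (-0.20) lay closer to 0.

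Cholesterol synthesis and uptake showed no such pattern, with 0 of 23 genes passing, a median of -0.21 and 4 genes with all RevDKO libraries below, against 8.18% of all genes. The largest fall, Ebp (-1.15, adjusted p 0.542), rested on 63.8 RPKTM in RevDKO replicate 2 against 489 and 583 in the other RevDKO libraries. Ebp is on chromosome X in the stretch shifted down in that library, and its difference was -0.12 with the running median subtracted. Of 12 genes of lipoprotein lipase and fatty acid uptake none passed. The fatty acid binding protein Fabp1 measured 2704, 2475 and 3829 against 1150, 1385 and 1889 (-1.03, adjusted p 0.377), and the scavenger receptor Cd36 differed by -1.08 (adjusted p 0.568), both without overlap.

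Genes of fatty acid oxidation and other PPARα targets had, in the median, lower levels in the libraries labelled RevDKO. Of 25 tested, 3 passed, all lower, against 0.225% of all genes tested. In 14 all RevDKO libraries lay below all Control libraries, against 8.18% of genes tested, while in 1 (Ppargc1a) they lay above. The median of the list was -0.53 at ZT22, with -0.45, -0.42 and -0.32 at ZT4, ZT10 and ZT16. The acyl-CoA thioesterase Acot1 measured 108, 92.4 and 60.5 RPKTM in Control and 6.73, 8.07 and 4.87 in RevDKO, 11.5-fold lower (-3.52, SE 0.59, adjusted p 0.00208). Its neighbour and close relative Acot3 measured 34.6, 38.7 and 14.8 and was listed at 0, 0 and 2.18 in RevDKO (-4.26, adjusted p 0.00316). Both sit on chromosome 12 in a cluster of similar genes, whose other members Acot2 (-1.10, adjusted p 0.505) and Acot4 (-1.01, adjusted p 0.501) had lower values without overlap. Cyp4a10, a fatty acid omega-hydroxylase, measured 1053, 1138 and 612 against 71.2, 159 and 272 (-2.62, adjusted p 0.0188), and its relative Cyp4a14 measured 1281, 3121 and 1139 against 142, 236 and 346 (-2.87, adjusted p 0.146).

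The mitochondrial and peroxisomal enzymes of the list differed by less. Peroxisomal Acaa1b measured 1559, 1080.5 and 929 in Control and 275, 353 and 412 in RevDKO (-1.76, adjusted p 0.0720), with nearly the same difference at ZT4 (-1.82), ZT10 (-1.86) and ZT16 (-1.82). Cpt1a, the gate of mitochondrial oxidation, differed by -0.53 and Cpt2 by -0.58 (adjusted p 0.473 and 0.363), with no overlap between the groups in either. Ppara itself differed by -0.17 (adjusted p 0.953). Cyp4a10 lost its call without Control replicate 1, Control replicate 2, RevDKO replicate 1 or RevDKO replicate 2, with an adjusted p of up to 0.146.

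**Figure D4:**
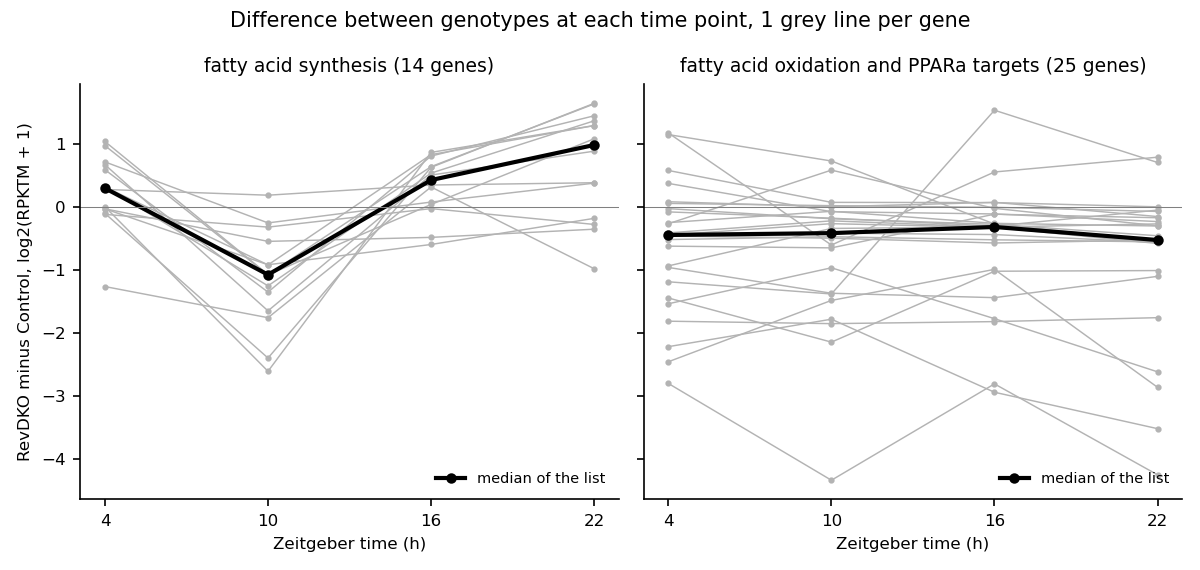
Difference between RevDKO and Control in log2(RPKTM + 1) (vertical axis) at each zeitgeber time in hours (horizontal axis) for 14 genes of fatty acid synthesis (left) and 25 of fatty acid oxidation (right), with 1 grey line per gene and the list median in black. The left median goes from -1.08 at ZT10 to 0.98 at ZT22, while the right median stays between -0.53 and -0.32.

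The serum amyloid genes, whose products the liver secretes in inflammation, fell in the libraries labelled RevDKO, with 1 Control library far above the rest. Of 23 genes of the list of secreted hepatokines and acute-phase proteins, 3 passed as lower (Saa1, Saa2 and Saa4) and 1 as higher (Hamp2), against 0.225% and 0.263% of all genes. In 7 the RevDKO libraries lay wholly below Control, against 8.18% of all genes, and the median was -0.35. The serum amyloid gene Saa1 measured 2566, 226 and 383 in Control and 25.6, 19.9 and 45.8 in RevDKO, 20.5-fold lower (-4.36, SE 0.69, adjusted p 0.00122). Its near-identical neighbour Saa2 measured 705, 55.1 and 45.3 against 5.83, 8.21 and 16.7 (-3.56, adjusted p 0.0149), and Saa4 measured 2123, 786 and 667 against 297.9, 291 and 339 (-1.75, adjusted p 0.0245). Control replicate 1 was the high library in each, as it was for Lcn2 (896 against 34.98 and 30.9), Orm2 (648 against 37.0 and 11.8) and haptoglobin, Hp (51122 against 15851 and 11262). Without Control replicate 1, Saa1 differed by -3.32 (adjusted p 0.0286), Saa2 by -2.30 (adjusted p 0.277) and Saa4 by -1.23 (adjusted p 0.320). Neutrophil markers summed to 32.4 RPKTM in that library and to between 1.16 and 9.44 in the other 5, with S100a8 at 13.8 against 0.373 to 4.07. Both neutrophil markers that could be tested lie in the low stretch of RevDKO replicate 2, and their median difference went from -1.41 to -0.85 with the running median subtracted. Lcn2 lies in the low stretch of Control replicate 2 and went from -2.78 to -3.10 (adjusted p 0.315). The macrophage marker sum was also highest there, and the part of these cells in the result was not tested. Enho, which encodes the secreted peptide adropin, measured 61.8, 42.4 and 56.0 against 6.55, 19.5 and 14.4 (-2.01, adjusted p 0.145).

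Sex-biased genes that growth hormone controls moved in both directions. Of 27 tested, 1 was called higher (Cyp17a1), against 0.263% of all genes, and 2 lower (Mup17 and Cyp4a12a), against 0.225%. In 5 the RevDKO libraries lay wholly above Control, against 8.08% of all genes, and in 4 wholly below, against 8.18%. The median was -0.02. Cyp4a12a, a male-biased arachidonic acid hydroxylase, measured 363, 503 and 392 in Control and 142, 94.2 and 63.3 in RevDKO, 4.35-fold lower (-2.12, SE 0.40, adjusted p 0.00541). Without RevDKO replicate 3 its adjusted p was 0.0532. The alpha-1 antitrypsin paralog Serpina1e differed by -1.91 (adjusted p 0.222) without overlap, while the growth hormone receptor gene Ghr (0.02), Igf1 (-0.03) and Stat5b (0.21) lay near 0.

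Of 18 genes of glucose and glycogen metabolism 1 passed as higher, against 0.263% of all genes. Ugp2, which makes the UDP-glucose for glycogen, measured 518, 513 and 541 in Control and 1028, 1089 and 972 in RevDKO, 1.96-fold higher (0.97, SE 0.22, adjusted p 0.0315), and it did not pass with any 1 library left out (adjusted p up to 0.159). Pyruvate kinase Pklr (1.06, adjusted p 0.619, and 1.56 with the running median subtracted) and ketohexokinase Khk (0.65) also had higher means, and Pck1, of gluconeogenesis, a lower one (-0.34). None of the 31 genes of xenobiotic metabolism passed, although 6 lay wholly above and 11 wholly below, against 8.08% and 8.18% of all genes. Cyp3a11 measured 1567, 1242 and 1102 in Control and 334, 348 and 178 in RevDKO (-2.23, SE 0.79, adjusted p 0.319), and Cyp2b10 differed by -2.76 (adjusted p 0.319). The other way lay Gstm2 (1.90, adjusted p 0.109, and 1.69 with the running median subtracted) and Cyp2a5 (1.67, adjusted p 0.166).

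In the remaining lists no gene passed. These held 18 genes of bile acid synthesis and transport (median 0.06), 16 of the insulin and feeding response (-0.04), 23 of the methionine cycle and amino acid catabolism (0.28), 11 of heat shock and cold induction (-0.41), 11 immediate early genes (-0.19) and 13 of the cell cycle (-0.23). Cyp7a1, the rate-limiting enzyme of bile acid synthesis, differed by -0.85 (adjusted p 0.749), and the bile salt export pump Abcb11 by 0.58 (adjusted p 0.445, and 0.18 with the running median subtracted). The cell cycle kinase gene Wee1, an E-box target of the clock, measured 18.02, 19.1 and 20.4 against 10.3, 8.81 and 6.36 (-1.11, adjusted p 0.232). The ligands and regulators that the study followed from hepatocytes to macrophages did not pass either, 0 of 8, with Bmp5 at 0.45 (adjusted p 0.834), Pdgfd at 0.44 (adjusted p 0.901), Inhba at 0.13 (adjusted p 0.989) and Tnfsf12 at -0.07 (adjusted p 0.991). The list also holds Jund, Eno1, Pdgfrb and Bmpr1a, which the paper followed in macrophages. For Pdgfd and Bmp5 in hepatocytes the paper reports changes in rhythm over the day. A genotype difference in hepatocytes at ZT22 alone tests neither.

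**Figure D5:**
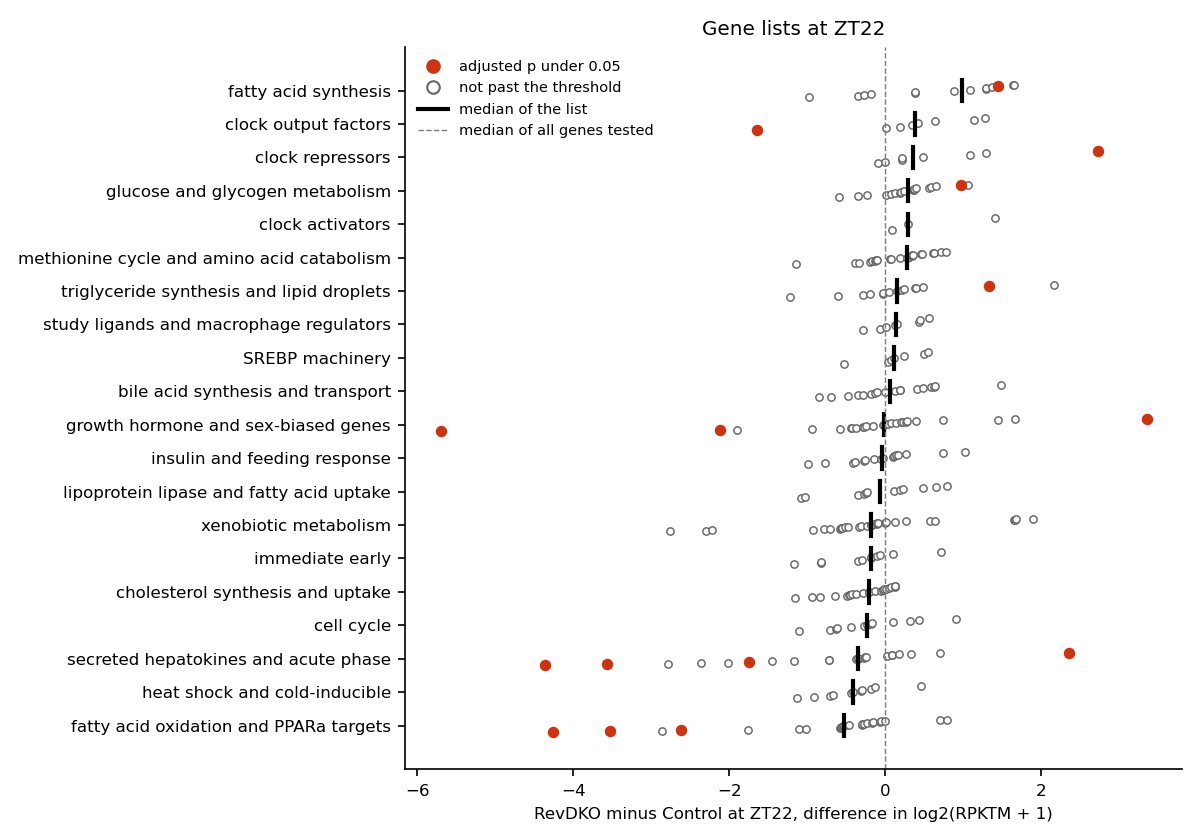
Difference between RevDKO and Control at ZT22 in log2(RPKTM + 1) (horizontal axis) for each tested gene of 20 lists (rows), with genes past an adjusted p of 0.05 filled red, the others open, and the list median a black bar. Fatty acid synthesis has the highest median (0.98) and fatty acid oxidation the lowest (-0.53), and 15 points are filled.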

How the data were processed

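RNA of hepatocytes was sequenced after ribosomal RNA depletion with a stranded kit. Per the labels, reads were aligned with STAR to mm9 and quantified with HOMER, with versions not given in the sources used here. The authors deposited RPKM-type values for 42322 transcripts, in RPKTM, which is RPKM on a read total 10 times larger, quantile normalized so that all 36 hepatocyte columns hold 1 set of values. Sequencing depth is therefore unknown, and no interval that needs it is given. Coordinates are those of the table (mm9, counted from 1).

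For each of 25095 symbols the transcript with the highest mean was kept, and the 13326 genes above 5 in at least 3 columns were tested on log2(value + 1), so changes of low genes are understated. limma 3.58.1 (R 4.3.3) with a mean-variance trend was fitted to 12 group means over 36 libraries (24 residual degrees of freedom), with two-sided p-values adjusted by Benjamini-Hochberg and a threshold of 0.05. Contrasts were RevDKO minus Control at ZT22, that effect minus the effect at ZT10, and minus its mean at ZT4, ZT10 and ZT16. The code was tested on simulated data. Groups came from the titles.

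Named genes were the targeted genes, the 12 largest rises and falls among called genes without overlap, all genes of the clock, SREBP and ligand lists, up to 5 called members (otherwise the 2 smallest p) of each other list, and the 6 smallest p of each difference test. Some genes of this rule are not reported here. Genes named otherwise were chosen after their values were seen. Members and lists were chosen with earlier results of these data known, and a gene's list says nothing independent of them. Alternatives covered the pseudocount, filter, libraries, weights, scaling, transcripts, a macrophage covariate, a replicate block and single libraries left out. Subtraction of the running median over 31 genes and the fits on replicates 1 and 3 were added after seeing the data. Tables and plots used Python 3.11.15, pandas 2.3.3, numpy 2.4.6 and matplotlib 3.10.9.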

Additional observations from a re-analysis of the deposited data

Results flagged for a closer look

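The effect of genotype at ZT22 differed from that at another time, by a limma test of the difference itself, in the genes given here as log2 differences of effects. Against ZT10, 39 genes passed, and against the mean of ZT4, ZT10 and ZT16, 9 genes. The effect was smaller at ZT22 for Arntl (-3.91 against ZT10 and -2.06 against the other times), Npas2 (-4.19 and -3.61), Loxl4 (-3.25 and -2.40), Lpl (-3.09 and -2.47) and Ddc (-2.14 and -1.23). It was smaller against ZT10 alone for Cry1 (-2.33), Nfil3 (-1.92) and Insig2 (-1.71), where the comparison with the mean of the other times did not pass.

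The effect was more positive at ZT22 for Gpam (2.17 against ZT10 and 1.34 against the other times), Fgfrl1 (1.40 and 1.06) and Acly (2.80 against ZT10). Fgfrl1, a receptor of the fibroblast growth factor family that lacks the kinase domain, measured 71.7, 60.9 and 66.2 RPKTM in Control and 120.2, 110.3 and 77.9 in RevDKO at ZT22, which did not pass (0.61, adjusted p 0.176). Groups of 3 libraries are too small for the test of single distant samples, which was not run.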

How the results depend on the processing

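Depth is unknown, and 3 libraries per group limit the precision. The count of genes called at ZT22 (65) was 26 without a filter on low values, 123 in the 24 Control and RevDKO libraries, 137 with array weights, 117 over all transcripts, 17 over replicates 1 and 3 at ZT22 and 23 over replicates 1 and 3 of every group. The count against ZT10 (39) was 78 in the 12 libraries of both times, 65 in the 24 libraries, 177 with array weights, 73 over all transcripts, and 15 and 5 in the fits on replicates 1 and 3. The count against the other times (9) was 4 without a filter, 4 in the 24 libraries, 19 over all transcripts, and 3 and 0 in the fits on replicates 1 and 3, where limma gave 582 genes at an unadjusted p under 0.05 in the last. Leaving out 1 library gave 19 to 53, 23 to 35 and 3 to 13 genes. The second count was lowest without Control ZT10 replicate 2 (23), RevDKO ZT22 replicate 1 (24), Control ZT10 replicate 3 (25) or RevDKO ZT10 replicate 1 (25). The third was 3 without Control ZT22 replicate 2, RevDKO ZT22 replicate 1 or RevDKO ZT22 replicate 2, 4 without Control ZT10 replicate 2, Control ZT22 replicate 1 or RevDKO ZT22 replicate 3, and 5 without RevDKO ZT16 replicate 3. The cause of these shifts was not tested, beyond the smaller number of libraries.

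Same-numbered libraries at ZT22 had deviations that correlated by -0.07, 0.04 and 0.03 over all genes, so they were not treated as paired, although both replicate 2 libraries were high over the end of chromosome 18. With the replicate number as a block the counts were 62, 33 and 3, and of 107 named results 6 lost and 1 gained its call. Over 2375 recomputed named results, 2089 kept direction and call, 223 lost and 14 gained a call, and 49 turned sign, in genes that were not called. Cry1 turned with array weights (0.0215), rescaling by median ratio (0.000276) and replicates 1 and 3 (0.12), Ciart with subtraction (0.32) and replicates 1 and 3 (0.23), and Hlf with the macrophage covariate (-0.0713). Insig2 turned with array weights (-0.0808), the macrophage covariate (-0.0324) and replicates 1 and 3 (-0.17), and Bmpr1a with array weights (-0.0338), the covariate (-0.0022), subtraction (-0.0019) and replicates 1 and 3 (-0.17). Inhba (-0.0265) and Eno1 (-0.0515) turned over replicates 1 and 3, Tnfsf12 with subtraction (0.0804), and Rbm3 with subtraction (0.17) and replicates 1 and 3 (0.0015). With 1 library left out the values ranged from -0.0710 to 0.0810 for Cry1, -0.66 to 0.27 for Ciart, -0.0781 to 0.109 for Hlf, -0.0070 to 0.227 for Insig1, -0.0787 to 0.214 for Insig2, -0.16 to 0.14 for Bmpr1a, -0.16 to 0.63 for Inhba, -0.34 to 0.24 for Tnfsf12, -0.0087 to 0.379 for Eno1 and -0.30 to 0.34 for Spp1.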

Other observations

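Other genes that passed the test of ZT22 against ZT10 are named here after their values were seen. Slc2a4, the insulin-regulated glucose transporter better known from muscle and fat, measured 0.137, 2.50 and 1.06 RPKTM in Control and 19.5, 13.5 and 2.36 in RevDKO at ZT22, so that RevDKO replicate 3 lay below Control replicate 2 (difference of effects 4.60, limma adjusted p 0.0449). Aacs, which activates acetoacetate for lipid synthesis, overlapped between the groups at ZT22 (0.23) and differed by -2.44 at ZT10 (2.67, adjusted p 0.0471). Gpi1, glucose-6-phosphate isomerase, measured 209, 219.999 and 216 against 407, 484 and 273 at ZT22 (1.60, adjusted p 0.0471). In the other direction, Cdkn1a, the cell cycle inhibitor p21, was higher by 4.56 at ZT10 and differed by 0.44 at ZT22 (-4.12, adjusted p 0.0101). Chka, the first enzyme of phosphatidylcholine synthesis from choline, was higher by 2.83 at ZT10 and differed by 0.35 at ZT22 (-2.48, adjusted p 0.00490). Clpx, a mitochondrial chaperone, and Gldc, of the glycine cleavage system, were higher by 2.23 and 1.55 at ZT10 and differed by -0.02 and 0.32 at ZT22 (adjusted p 0.00171 and 0.0142). With the running median subtracted, Gpi1 lost its call (adjusted p 0.0867). Over replicates 1 and 3 at ZT22 only Cdkn1a (adjusted p 0.0434) and Clpx (adjusted p 0.0243) of these genes passed. With every group reduced none of them passed, with adjusted p between 0.0628 for Clpx and 0.507 for Aacs.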
